A study of Mus musculus with 20 samples.

Results

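The genes described here encode the NF-κB transcription factor subunits, the inhibitory IκB proteins that hold them in the cytoplasm, and a kinase and a ubiquitin-editing enzyme that regulate the pathway. They were taken by symbol (*Nfkb1*, *Nfkb2*, *Rel*, *Rela*, *Relb*, *Nfkbia*, *Nfkbib*, *Nfkbie*, *Tnfaip3* and *Ikbkb*), and all 10 were found among the 54532 genes of the count table. Their RNA was measured by RNA-seq in temporomandibular joint (TMJ) condylar heads, taken with part of the subchondral bone, from 20 mice. All animals were homozygous for floxed *Loxl2* (*Loxl2* fl/fl) and carried a tamoxifen-inducible Cre driven by the aggrecan promoter (Acan-Cre), so that recombination is directed to aggrecan-expressing cells, whereas the tissue taken also held bone, blood-derived and muscle cells. The 8 control mice (Control) received vehicle and the 12 mice labelled knockout (LOXL2_KO) received 75 mg/kg of tamoxifen in corn oil, daily at first and then monthly. Injections began at an age of 6 months and tissue was collected 4 months later. Since every mouse labelled knockout and no control had tamoxifen, the drug and the deletion cannot be told apart.

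NF-κB proteins act as dimers. In resting cells the inhibitors IκBα, IκBβ and IκBε (*Nfkbia*, *Nfkbib*, *Nfkbie*) retain dimers such as RELA with the product of *Nfkb1* in the cytoplasm, and cytokines such as IL-1β and TNF-α activate the IκB kinase, whose catalytic subunit IKKβ is encoded by *Ikbkb*, so that the inhibitor is degraded and the dimer enters the nucleus (the canonical pathway). In the non-canonical pathway, engaged by receptors such as RANK, the product of *Nfkb2* is processed and enters the nucleus with RELB. Much of this control acts on proteins, which RNA-seq does not measure, but several pathway genes are themselves transcribed by NF-κB, and in joint tissue the pathway is known for its part in cartilage breakdown and osteoclast formation.

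The binding site of NF-κB, the κB motif, was looked for in the promoters of the members, since several of them are known targets of the factors they encode. RefSeq promoter windows (GRCm38.p6) reached from 250 bases before to 50 bases after a start site and were matched by symbol for 7 of the 10 genes. The 10-letter κB consensus is 3 G, a purine, any 2 bases, 2 pyrimidines and 2 C, and it was searched on both strands, where a palindromic site matches on both and was counted once. It was present in at least 1 window of 5 of these 7 genes (*Nfkbia*, *Nfkbie*, *Nfkb2*, *Rel* and *Tnfaip3*), and in 9.55% of the 27018 genes with such windows. The letters were not found in the windows of *Rela* and *Nfkbib*. The 250 bases before the start site are printed 5′ to 3′ on the strand of the gene for the *Nfkbia*, *Nfkbie* and first *Nfkb2* windows, which hold a match and belong to genes called higher, and for *Rela*, which was also called higher and holds none, with the matches in capitals. The sequences are at chr12:55492648-55492897 (minus strand), chr17:45555450-45555699 (plus), chr19:46304487-46304736 (plus) and chr19:5637291-5637540 (plus).
Nfkbia: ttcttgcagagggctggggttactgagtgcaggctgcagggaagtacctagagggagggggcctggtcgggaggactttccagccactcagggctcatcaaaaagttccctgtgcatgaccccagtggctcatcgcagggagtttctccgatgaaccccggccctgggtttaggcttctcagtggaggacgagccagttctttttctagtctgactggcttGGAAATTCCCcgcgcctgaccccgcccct
Nfkbie: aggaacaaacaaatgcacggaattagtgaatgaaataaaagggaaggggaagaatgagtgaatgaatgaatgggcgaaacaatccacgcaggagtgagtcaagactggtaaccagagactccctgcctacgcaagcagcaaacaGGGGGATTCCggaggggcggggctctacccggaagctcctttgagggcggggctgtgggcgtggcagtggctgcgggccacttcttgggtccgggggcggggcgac
Nfkb2: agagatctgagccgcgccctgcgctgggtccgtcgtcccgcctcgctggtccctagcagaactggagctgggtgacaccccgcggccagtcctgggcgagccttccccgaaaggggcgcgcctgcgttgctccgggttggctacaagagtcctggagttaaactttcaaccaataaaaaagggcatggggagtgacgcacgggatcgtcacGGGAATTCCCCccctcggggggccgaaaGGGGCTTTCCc
Rela: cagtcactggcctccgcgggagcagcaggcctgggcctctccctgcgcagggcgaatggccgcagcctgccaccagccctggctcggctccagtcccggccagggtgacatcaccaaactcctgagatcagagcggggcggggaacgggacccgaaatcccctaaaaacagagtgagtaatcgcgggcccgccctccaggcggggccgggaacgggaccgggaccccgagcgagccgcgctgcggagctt
The match began 29 bases before the start in *Nfkbia*, 106 before it in *Nfkbie*, and 39 and 11 before it in *Nfkb2*, where a shifted copy of the former began 38 before it. *Rel* and *Tnfaip3*, whose windows also hold a match and are not printed, were not called (adjusted p = 0.531 and 0.34 by edgeR). A match describes the letters of the promoter and was not measured as a bound site.

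Libraries held 11153820 to 27045668 counts. *Loxl2* itself was not called lower after tamoxifen: it ranged from 16 to 103 CPM (counts scaled to a common library size after TMM scaling) with a median of 70.3 in control and from 28.8 to 126 with a median of 110 in the libraries labelled knockout. The log2 fold change was 0.64 (SE 0.28, adjusted p = 0.101 by edgeR), and 11 of the 12 tamoxifen libraries exceeded the control median. A gene-level count also holds reads from exons outside the deleted part and from cells without Cre. Exons were not counted apart, so these counts do not show whether the deletion took place, and the cause of the higher level was not tested. Control replicate 8 stood apart, with a summed level of 10 chondrocyte markers of 111 CPM against 1540 to 5180 CPM in the other 19 libraries and *Col2a1* at 1.68 CPM against 66.3 to 2270 CPM. Its 10 skeletal muscle markers summed to 162000 CPM, against 33400 to 114000 CPM elsewhere. By *Acan*, whose promoter drives the Cre, this library was not alone, with 2.22 CPM against 2.35 to 276 CPM in the others. Control replicate 6 held the 2.35 CPM, and LOXL2_KO replicate 5 held 5.18 CPM. The groups also differed in other cell types: 9 of 10 leukocyte markers and 10 of 10 osteoclast markers were called higher in the libraries labelled knockout, by edgeR at an adjusted p under 0.05. The leukocyte markers summed to 39.1 to 179 CPM in control and 106 to 438 CPM in the libraries labelled knockout, and the osteoclast markers to 183 to 1490 CPM and 665 to 8090 CPM. Of 10 markers each, 7 macrophage and 6 osteoblast or osteocyte markers were also called higher and 4 muscle markers lower, with 0 of 10 endothelial markers called, by the same edgeR fit. Mast cell markers were called higher in 6 of 8 tested. Over all genes tested, 12.0% were called higher and 11% lower. Of the chondrocyte markers, 2 of 8 tested were called higher, as were 2 of 2 tested T cell and 1 of 8 tested neutrophil markers, and 0 of 5 tested B cell markers were called. The tested T cell markers, *Cd4* and *Cd5*, averaged 0.612 and 0.444 CPM in control and 2.1 and 1.77 CPM in the libraries labelled knockout. The rest of that list failed the filter on low counts. A marker that passes this filter through the group where it is high had to differ, so these counts are descriptions. In bulk tissue, fewer cells of a type and less RNA per cell cannot be told apart.

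Of the 10 NF-κB genes, all passed the filter on low counts, 5 were called higher in the libraries labelled knockout (*Nfkb2*, *Rela*, *Relb*, *Nfkbia* and *Nfkbie*) and 0 were called lower by edgeR at an adjusted p under 0.05. Over all 15984 genes tested, 23.0% were called, 12.0% higher and 11% lower. The log2 fold change was positive in 9 of the 10 and their median was 0.30, against -0.02 over all genes. The changes were small except for that of *Nfkbie*, a fold of 2.08, and the groups overlapped in each of the 10 genes, as the plot of levels by library shows.

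**Figure D1:**
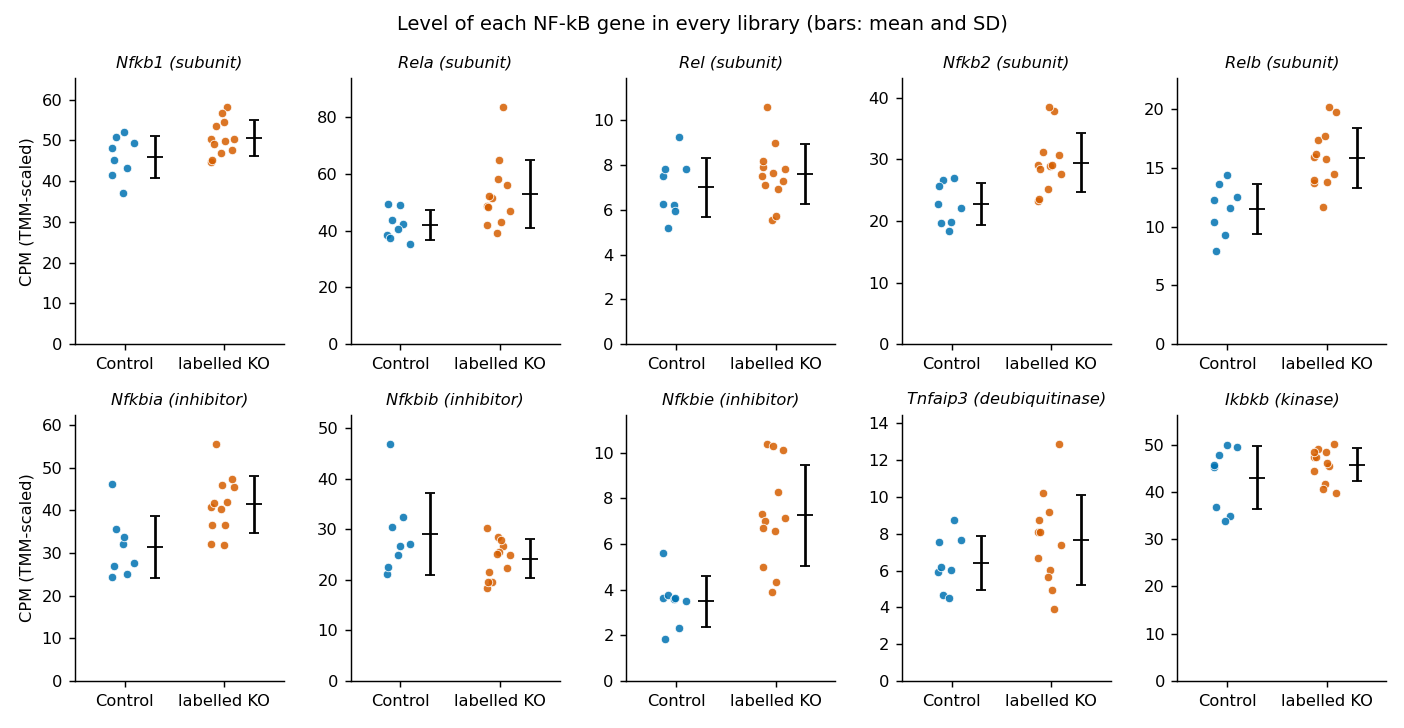
Level of each NF-κB gene in every library, in CPM on TMM-scaled library sizes from an axis start of 0, with 1 point per library (blue, 8 Control; orange, 12 LOXL2_KO) and the mean with SD beside the points. In *Nfkbie* and *Nfkb2* 9 of 12 libraries labelled knockout lie above every control library, whereas *Ikbkb* and *Rel* share most of their range between groups.

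Of the subunits of the canonical pathway, *Rela* was called higher and *Nfkb1* and *Rel* did not pass the test. *Nfkb1* (ENSMUSG00000028163, chr3:135584655-135691547), whose precursor yields the DNA-binding partner of RELA, ranged from 37.1 to 52.0 CPM with a median of 46.7 in control and from 44.8 to 58.2 with a median of 50.1 in the libraries labelled knockout. The groups overlapped over much of that range, although 10 of the 12 libraries labelled knockout exceeded the control median. Its log2 fold change of 0.14 (SE 0.07, 95% interval to 0.28, adjusted p = 0.161 by edgeR) did not pass the test. *Rela* (ENSMUSG00000024927, chr19:5637483-5648130), the main transactivating subunit, ranged from 35.2 to 49.5 CPM with a median of 41.5 in control and from 39.1 to 83.6 with a median of 50.1 in the libraries labelled knockout. The highest value belonged to LOXL2_KO replicate 4, and 11 of the 12 lay above the control median. *Rela* rose by 0.33 on the log2 scale (SE 0.12, adjusted p = 0.0492 by edgeR), which is just inside the threshold. This call was lost in 13 of 20 fits leaving out a single library, with adjusted p from 0.0539 to 0.0939 by edgeR, among them those without Control replicates 1, 2, 3, 4, 6 and 8 and those without LOXL2_KO replicates 2, 4, 6, 7, 8, 9 and 10. *Rel* (ENSMUSG00000020275, chr11:23736847-23770970), which encodes c-Rel, a subunit known best from lymphoid cells, ranged from 5.21 to 9.24 CPM with a median of 6.89 in control and from 5.53 to 10.6 with a median of 7.58 in the libraries labelled knockout. Nearly the whole range was shared. Its log2 fold change was 0.12 (SE 0.13, 95% interval -0.13 to 0.37, adjusted p = 0.531 by edgeR).

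The subunits of the non-canonical pathway, *Nfkb2* and *Relb*, were both called higher. *Nfkb2* (ENSMUSG00000025225, chr19:46304320-46312385) ranged from 18.4 to 26.9 CPM with a median of 22.5 in control and from 23.2 to 38.5 with a median of 29.0 in the libraries labelled knockout. All 12 libraries labelled knockout exceeded the control median and 9 lay above the highest control. *Nfkb2* rose by 0.37 on the log2 scale (SE 0.10, adjusted p = 0.0155 by edgeR). *Relb* (ENSMUSG00000002983, chr7:19606217-19629438), whose product pairs with that of *Nfkb2*, ranged from 7.96 to 14.4 CPM with a median of 11.9 in control and from 11.7 to 20.2 with a median of 15.9 in the libraries labelled knockout. Control replicate 8 held the lowest value, and 8 of the 12 libraries labelled knockout lay above the highest control. *Relb* rose by 0.46 (SE 0.12, adjusted p = 0.00929 by edgeR), and by 0.41 without Control replicate 8 (adjusted p = 0.019 by edgeR). These calls, like those of *Nfkbia* and *Nfkbie*, were kept in all 20 fits leaving out a single library. The annotated exons of *Nfkb2* share 299 bases with *Psd* and 531 bases with a bidirectional promoter lncRNA on the opposite strand, and the use of strand in counting is not given in the sources used here, so that reads in these stretches are uncertain.

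The 3 classical IκB genes did not move together. *Nfkbia* (ENSMUSG00000021025, chr12:55489410-55492647), the best-known feedback inhibitor, ranged from 24.4 to 46.2 CPM with a median of 29.9 in control and from 32.0 to 55.7 with a median of 41.3 in the libraries labelled knockout. All 12 libraries labelled knockout exceeded the control median, but Control replicate 5, at 46.2 CPM, lay above most of them. *Nfkbia* rose by 0.40 on the log2 scale (SE 0.12, adjusted p = 0.023 by edgeR). *Nfkbie* (ENSMUSG00000023947, chr17:45555703-45563169) had lower counts, from 24 to 97 reads in control libraries and from 55 to 323 in the libraries labelled knockout. It ranged from 1.84 to 5.59 CPM with a median of 3.61 in control and from 3.90 to 10.4 with a median of 7.07 in the libraries labelled knockout. All 12 libraries labelled knockout exceeded the control median, and 9 above the highest control, replicate 5. *Nfkbie* rose by 1.06 (SE 0.21, adjusted p = 0.00258 by edgeR), the largest change among the 10 genes in this fit, and by 0.98 without Control replicate 8 (adjusted p = 0.00513 by edgeR). *Nfkbib* (ENSMUSG00000030595, chr7:28758251-28767512) was the only member with a negative log2 fold change in this fit. It ranged from 21.2 to 46.9 CPM with a median of 26.9 in control and from 18.3 to 30.2 with a median of 25.0 in the libraries labelled knockout. The highest control value belonged to Control replicate 8, and 9 of the 12 libraries labelled knockout lay below the control median. Its log2 fold change of -0.26 (SE 0.13, adjusted p = 0.149 by edgeR) did not pass the test and moved to -0.12 without Control replicate 8 (adjusted p = 0.489 by edgeR). Its exons overlap those of *Ccer2* by 314 bases and of *Sirt2* by 42 bases on the opposite strand.

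The regulators *Tnfaip3* and *Ikbkb* did not pass the test. *Tnfaip3* (ENSMUSG00000019850, chr10:19000910-19015657) encodes a ubiquitin-editing enzyme that ends NF-κB signalling and is induced by it. It ranged from 4.49 to 8.76 CPM with a median of 6.11 in control and from 3.93 to 12.9 with a median of 7.74 in the libraries labelled knockout, which thus spread to both sides of the control range. The log2 fold change was 0.26 (SE 0.19, 95% interval -0.12 to 0.63, adjusted p = 0.34 by edgeR). *Ikbkb* (ENSMUSG00000031537, chr8:22659212-22706589) ranged from 33.9 to 50.0 CPM with a median of 45.4 in control and from 39.8 to 50.2 with a median of 46.7 in the libraries labelled knockout. The highest values were nearly equal in both groups. The log2 fold change was 0.09 (SE 0.08, 95% interval -0.07 to 0.25, adjusted p = 0.445 by edgeR), an interval that leaves room for small changes in either direction.

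The fit was repeated with the level of another cell type as a covariate. When the mean level of the 10 leukocyte markers was added to the fit as a covariate, the log2 fold change of *Nfkbie* was 0.16 (SE 0.21), that of *Nfkb2* 0.16 (SE 0.15) and that of *Relb* 0.11 (SE 0.16), and 0 of the 10 genes were called by edgeR, with 0 at an unadjusted p under 0.05. Over all 15984 genes 0 were called in that fit too, with 854 at an unadjusted p under 0.05. With the osteoclast markers as covariate the values were 0.16 (SE 0.20), 0.27 (SE 0.16) and 0.20 (SE 0.17), and the count of called members was again 0 by edgeR, with 0 at an unadjusted p under 0.05, where 0 of all genes were called and 1299 had an unadjusted p under 0.05. The groups accounted for 58.2% of the variance of the leukocyte list and 59.0% of that of the osteoclast list over the 20 libraries, so each covariate shares much of its variation with the comparison, and the part of these cell types in the calls was not tested by these fits. With the skeletal muscle markers as covariate, of whose variance the groups accounted for 21.3%, *Nfkbie* alone of the members stayed called at 0.84 (SE 0.21, adjusted p = 0.0224 by edgeR), and 1154 of all genes were called against 3673 without a covariate. The other 4 calls were lost in that edgeR fit: *Nfkb2* was at 0.38 (adjusted p = 0.0507), *Relb* at 0.43 (adjusted p = 0.0533), *Rela* at 0.36 (adjusted p = 0.0988) and *Nfkbia* at 0.30 (adjusted p = 0.163). At an unadjusted p under 0.05 by edgeR it held 5 members, the same that were called without a covariate, and 3965 of all genes.

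**Figure D2:**
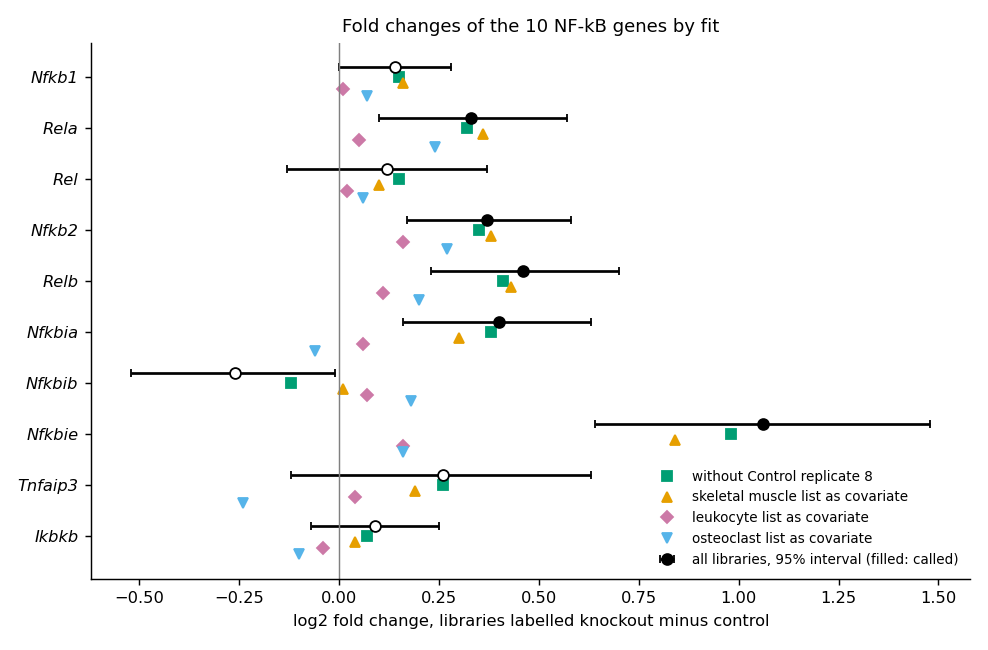
Log2 fold change of each NF-κB gene (libraries labelled knockout minus control) in the fit of all 20 libraries with its 95% interval (black, filled where called), without Control replicate 8 (green), and with the skeletal muscle (orange), leukocyte (purple) or osteoclast (light blue) markers as covariate. With the leukocyte markers the values of all 10 genes lie between -0.04 and 0.16.

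Ratios between members within a library do not depend on how libraries are scaled. The *Nfkb2* to *Nfkb1* count ratio compares the non-canonical precursor with the canonical one. On the log2 scale it averaged -1.02 ± 0.22 (SD, n = 8) in control, between -1.39 and -0.68. Libraries labelled knockout averaged -0.79 ± 0.13 (SD, n = 12), between -0.95 and -0.56. All 12 libraries labelled knockout exceeded the control median, and the difference was 0.22 (exact two-sided permutation p = 0.00931, 0.0372 after adjustment over the 4 ratios). The difference ran from 0.17 to 0.27 when each library was left out, and the adjusted exact p exceeded 0.05 in 11 of those 20 cases (without Control replicate 3, 6, 7 or 8 or LOXL2_KO replicate 2, 4, 5, 6, 8, 9 or 12), reaching 0.112 without Control replicate 7. The ratio of *Relb* to *Rela* was higher by 0.16 (exact permutation p = 0.163, adjusted 0.326), and that of *Rel* to *Rela* differed by -0.19 (exact permutation p = 0.257, adjusted 0.343). The ratio of *Nfkbia* to *Rela*, an inhibitor over a subunit it binds, averaged -0.44 ± 0.21 (SD, n = 8) in control against -0.34 ± 0.37 (SD, n = 12) after tamoxifen, a difference of 0.10 (exact permutation p = 0.505, also after adjustment). None of these 3 ratios differed beyond the spread between libraries.

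**Figure D3:**
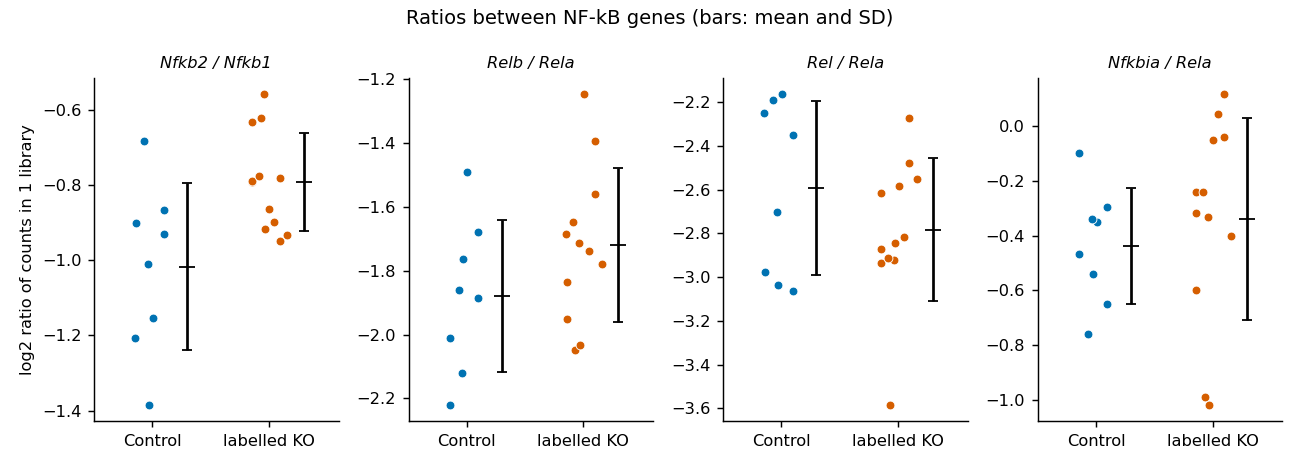
Log2 ratio of the counts of pairs of NF-κB genes in each library (blue, 8 Control; orange, 12 LOXL2_KO), with mean and SD beside the points. For *Nfkb2* over *Nfkb1* all 12 libraries labelled knockout lie between -0.95 and -0.56, above the control median, and *Nfkbia* over *Rela* runs from -0.76 to -0.10 in control and from -1.02 to 0.12 in the libraries labelled knockout.

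Levels of different genes were compared per length, as CPM per kilobase of annotated exon. In control, *Nfkbia* was the most abundant of the 10 transcripts at 19.5 ± 4.51 CPM per kilobase (SD, n = 8). *Rela* (13.7) and *Nfkbib* (13.4) followed and were not separated, since *Rela* was the higher in 5 of 8 libraries. Next came *Nfkb2* (4.97), *Nfkb1* (3.81), *Relb* (2.96) and *Ikbkb* (2.25), each above its follower in 8 of 8 control libraries. *Nfkbie* (1.15), *Rel* (0.938) and *Tnfaip3* (0.887) were lowest, and neighbours among them changed places between libraries. In the libraries labelled knockout *Nfkbia* again led at 25.7 ± 4.19 CPM per kilobase (SD, n = 12), *Rela* (17.2) lay above *Nfkbib* (11.1) in 12 of 12 libraries, and *Nfkbie* (2.38) reached the level of *Ikbkb* (2.40), which was the higher of the pair in 7 of 12. The order depends on the length used: *Nfkb1* and *Ikbkb* have unions of exons of 12061 and 19078 bases but longest transcripts of 4149 and 4845 bases, and per kilobase of longest transcript their control levels of 11.1 and 8.87 CPM lie above the 5.92 CPM of *Nfkb2*. By that length *Ikbkb* (9.44 CPM) also lay well above *Nfkbie* (2.41 CPM) in the libraries labelled knockout. The equal level of *Nfkbie* and *Ikbkb* thus held for the union of exons only.

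How members varied from library to library was described after removal of each group's mean, over the 20 libraries. Among the 45 pairs of members the median correlation was 0.22, from -0.59 between *Nfkbib* and *Nfkbie* to 0.70 between *Nfkbia* and *Nfkbie*, and 10 pairs exceeded 0.5. These pairs share library composition and depth, and the values are descriptive. Named pairs were then tested within each group, in 12 relations adjusted together. *Nfkb1* and *Rela*, which encode partners of the commonest dimer, were related in the libraries labelled knockout (n = 12, r = 0.77, permutation p = 0.00243, adjusted 0.0292), with a rank correlation of 0.72 (permutation p = 0.0109, adjusted 0.131) and an r of 0.61 without the 2 libraries farthest from the median. In control the same relation had r = 0.35 (n = 8, exact permutation p = 0.391, adjusted 0.469) and a rank correlation of 0.36 (exact permutation p = 0.389, adjusted 0.519). The difference between the groups was not tested. *Nfkb2* and *Relb* had r = 0.49 in control (exact permutation p = 0.219, adjusted 0.329; rank correlation 0.38, exact p = 0.36, adjusted 0.519) and r = 0.55 in the libraries labelled knockout (permutation p = 0.0661, adjusted 0.168; rank correlation 0.39, permutation p = 0.211, adjusted 0.422), and the latter fell to 0.24 without the 2 farthest libraries. After adjustment no relation other than that of *Nfkb1* and *Rela* passed.

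*Nfkbie* tracked leukocyte markers within each group. Against the mean log2 CPM of the 10 leukocyte markers (among them *Ptprc*, the pan-leukocyte antigen CD45), *Nfkbie* had r = 0.97 in control (n = 8, exact permutation p = 0.00188, adjusted 0.0332 over 20 relations), with a rank correlation of 0.67 (exact permutation p = 0.0831, adjusted 0.255) and r = 0.93 without the 2 farthest libraries. In the libraries labelled knockout it had r = 0.77 (n = 12, permutation p = 0.00332, adjusted 0.0332), a rank correlation of 0.69 (permutation p = 0.0153, adjusted 0.184) and r = 0.58 without the 2 farthest libraries. *Rel* had r = 0.75 in the libraries labelled knockout (n = 12, permutation p = 0.00566, adjusted 0.0377), with a rank correlation of 0.64 (permutation p = 0.0276, adjusted 0.184), and r = -0.52 in control (n = 8, exact permutation p = 0.181, adjusted 0.329; rank correlation -0.36, exact p = 0.389, adjusted 0.519). The other 17 relations did not pass, and no rank correlation passed after adjustment. This family of relations was chosen after seeing the data.

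**Figure D4:**
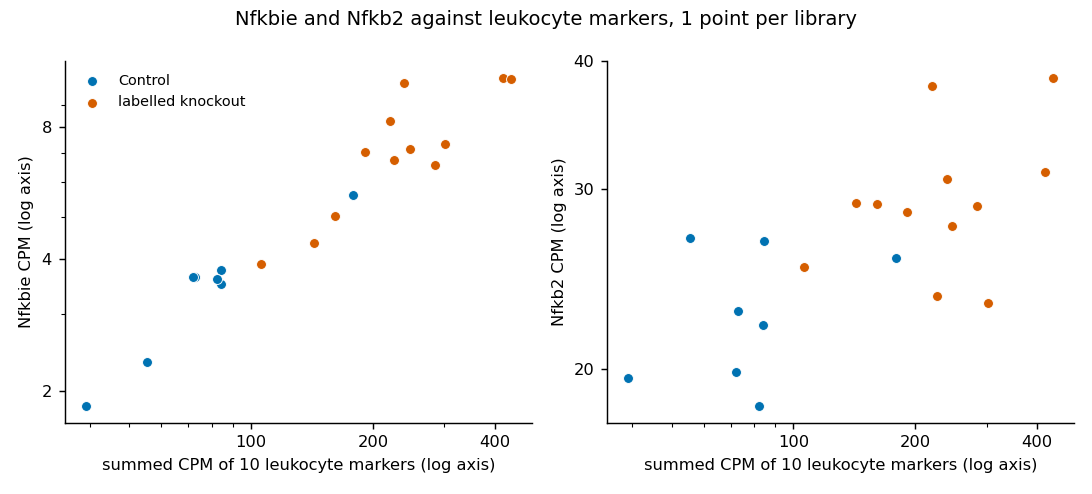
*Nfkbie* (left) and *Nfkb2* (right) in CPM against the summed CPM of 10 leukocyte markers, both on log axes, with 1 point per library (blue, 8 Control; orange, 12 LOXL2_KO). *Nfkbie* rises along the marker sum in both groups, while *Nfkb2* is scattered within each group (r on the mean log2 CPM of the markers 0.31 in control and 0.48 in the libraries labelled knockout).

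The protein-coding genes whose group-centred pattern over the 20 libraries was most like that of each member were described without a test, among 13275 genes with a mean of at least 1 CPM. *Nfkbie* was most like *Cyth4* (r = 0.92) and *Spi1* (r = 0.92), the latter a transcription factor of myeloid cells. By rank correlation these were only in places 74 and 41, and among the genes that follow *Traf5* was in place 129 and *Plxna2* in place 38, with the others within the first 16 places. *Nfkb2* was most like *Bahd1* (0.83) and *Zfp579* (0.82), *Rela* like *Sidt2* (0.91) and *Ltbp3* (0.89), and *Nfkb1* like *Med15* (0.76) and *Zswim4* (0.74). *Rel* was most like *Taf4* (0.74) and *Traf5* (0.74), and *Sbno2* (0.83) was among the genes most like *Relb*, as *Adamts12* (0.85) was for *Ikbkb*. The inhibitor *Nfkbia* was most like *Ccnd3* (0.86) and *Mogs* (0.78), *Tnfaip3* like *Agt* (0.82) and *Plxna2* (0.81), and *Nfkbib* like *Capn1* (0.96) and *Syngr2* (0.94), the closest match found for any member.

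Other genes of the pathway were read from the same fit in lists set by role, where 12.0% of all genes tested were called higher and 11% lower. Among the receptors and ligands, 14 of 20 genes were tested, 7 were called higher (50.0% of those tested) and 0 lower, and the median log2 fold change was 0.81. *Tnfrsf11a*, which encodes RANK, the receptor that drives osteoclast formation, ranged from 1.58 to 9.13 CPM with a median of 2.11 in control and from 5.96 to 31.9 with a median of 10.5 in the libraries labelled knockout. It rose by 2.02 on the log2 scale (SE 0.39, adjusted p = 0.00214 by edgeR), and with the osteoclast markers as covariate its log2 fold change was 0.31. The TNF receptors *Tnfrsf1a* (0.66, adjusted p = 0.00529) and *Tnfrsf1b* (0.78, adjusted p = 0.00744) and the toll-like receptor *Tlr2* (0.87, adjusted p = 0.00735) also rose in the edgeR fit. With the osteoclast markers as covariate the log2 fold change was 0.61 for *Tnfrsf1a*, 0.26 for *Tnfrsf1b* and 0.78 for *Tlr2*. With the leukocyte markers it was 0.25 for *Tnfrsf1a*, 0.06 for *Tnfrsf1b*, 0.39 for *Tlr2* and 0.67 for *Tnfrsf11a*. The cytokines *Tnf*, *Lta*, *Il1a* and *Il1b*, the T cell ligand *Cd40lg* and the B cell receptor *Tnfrsf13c* had too few counts to be tested, with at most 1.53 CPM in any library.

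Among 25 tested adaptors and kinases of 26 listed, 6 were called higher and 1 lower by edgeR, with a median log2 fold change of 0.12. *Ripk1*, the kinase at the TNF receptor, rose by 0.75 (adjusted p = 0.00419), and the interleukin-1 and toll-like receptor components *Irak4* (0.71, adjusted p = 0.00668) and *Myd88* (0.61, adjusted p = 0.0104) and the adaptor *Bcl10* (0.32, adjusted p = 0.0144) were also called higher by edgeR. *Tab3*, which encodes a ubiquitin-binding partner of the kinase TAK1, fell by 0.36 on the log2 scale (adjusted p = 0.037 by edgeR), a call lost without Control replicate 1, 2, 3, 6 or 8 or LOXL2_KO replicate 1, 4, 6, 7, 10 or 11, with adjusted p of up to 0.0969 by edgeR. Without Control replicate 8, 4 genes of this list were called instead of 7.

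All 9 other IκB and IKK genes were tested, and *Bcl3* alone was called, in the higher direction (11.1% of the list, against 12.0% of all genes). This atypical IκB protein binds the *Nfkb1* and *Nfkb2* products in the nucleus. *Bcl3* ranged from 1.99 to 8.79 CPM with a median of 4.28 in control and from 4.75 to 18.6 with a median of 9.07 in the libraries labelled knockout, and it rose by 1.09 on the log2 scale (SE 0.24, adjusted p = 0.00415 by edgeR). With the osteoclast markers as covariate its log2 fold change was 0.8, and with the leukocyte markers 0.31. The median of this list was 0.24. Leaving out LOXL2_KO replicate 5 gave 3 calls in it, and leaving out Control replicate 5 or 7 or LOXL2_KO replicate 11 or 12 gave 2. Of 15 negative regulators 14 were tested, with 2 called higher (14.3%) and 1 lower (7.14%) and a median of 0.21. In both lists the share called higher was thus near that of all genes tested. *Tnfaip8l2* (1.18, adjusted p = 0.00331) and *Pdlim2* (1.02, adjusted p = 0.0145) rose in the edgeR fit. With the osteoclast markers as covariate their log2 fold changes were 0.96 and -0.15, and with the leukocyte markers 0.3 and 0.04. *Cyld*, a deubiquitinase that restrains the pathway, fell by 0.35 on the log2 scale (adjusted p = 0.0319 by edgeR), but by 0.25 without Control replicate 8 (adjusted p = 0.114 by edgeR), and the call was also lost without Control replicate 3 or 4 or LOXL2_KO replicate 9. Without LOXL2_KO replicate 5, 6 genes of the list were called, and 5 without Control replicate 4. *Tnip3* was not tested.

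Of 30 genes known as transcriptional targets of NF-κB, 22 were tested, 6 were called higher (27.3%) and 1 lower (4.55%), and the median was 0.56. *Csf1*, the macrophage and osteoclast growth factor, ranged from 19.4 to 53.9 CPM with a median of 31.5 in control and from 44.8 to 115 with a median of 76.0 in the libraries labelled knockout. It rose by 1.15 on the log2 scale (SE 0.19, adjusted p = 0.00115 by edgeR). *Mmp9*, a gelatinase abundant in osteoclasts and also a member of the osteoclast marker list, rose by 2.81 (SE 0.57, adjusted p = 0.00258 by edgeR), and its log2 fold change was 0.05 with that list as covariate. *Vcam1* (0.90, adjusted p = 0.0107) and *Bcl2a1b* (2.22, adjusted p = 0.0161) were also called higher by edgeR. *Bcl2a1b* belongs to a family of near-identical copies, so its reads are uncertain, and it lay near the filter on low counts and dropped out of testing without LOXL2_KO replicate 1, 2, 4, 6 or 9. *Sod2*, the mitochondrial superoxide dismutase, went the other way: it ranged from 286 to 552 CPM with a median of 371 in control and from 185 to 355 with a median of 238 in the libraries labelled knockout. It fell by 0.60 on the log2 scale (SE 0.14, adjusted p = 0.00565 by edgeR), and 12 of 12 libraries labelled knockout lay below the control median. With the leukocyte markers as covariate the log2 fold change was 0.47 for *Csf1*, 1.03 for *Mmp9*, 0.12 for *Vcam1*, -0.06 for *Bcl2a1b* and -0.22 for *Sod2*. With the osteoclast markers it was 0.34 for *Csf1*, -0.21 for *Vcam1*, 0.03 for *Bcl2a1b* and -0.14 for *Sod2*. The inflammatory targets *Il6*, *Cxcl1*, *Cxcl2*, *Cxcl5*, *Ccl5*, *Csf2* and *Saa3* had too few counts to be tested. *Ccl20* had 0 counts in every library, which allows up to 0.246 CPM in the shallowest of them. Genes that pass the filter through the group in which they are high had to differ, so the counts of these lists are descriptions. With the leukocyte or the osteoclast markers as covariate 0 genes of any of the 5 lists were called by edgeR, where 0 of all genes were. The skeletal muscle markers as covariate left 1154 of all genes called by edgeR. In that fit 1 other IκB or IKK gene, 1 adaptor or kinase and 1 negative regulator were called. The receptor and target lists had 3 calls each. Calls lost there included those of *Myd88*, *Irak4*, *Bcl10*, *Pdlim2*, *Tnfrsf1b* and *Vcam1*.

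**Figure D5:**
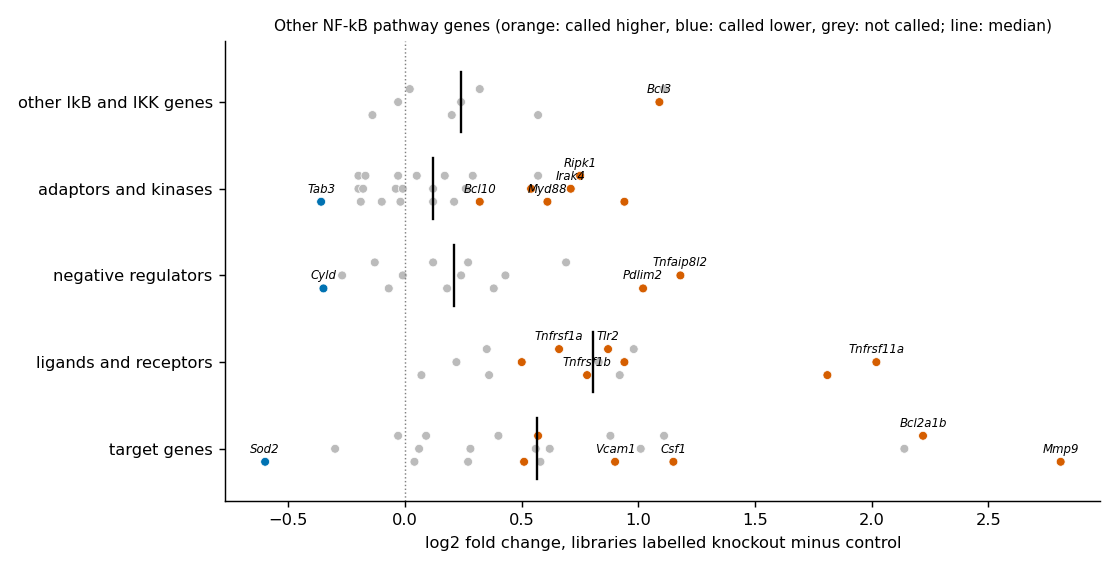
Log2 fold change (libraries labelled knockout minus control) of each tested gene in the 5 lists of other NF-κB pathway genes, with 1 point per gene (orange, called higher; blue, called lower; grey, not called) and a line at the list median. The medians of 0.12 to 0.81 lie above the -0.02 of all genes tested, and *Sod2*, *Tab3* and *Cyld* are called lower.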

How the data were processed

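The authors trimmed paired-end NovaSeq reads, aligned these to mm10 and deposited raw counts per Ensembl gene from featureCounts. The aligner, annotation release, strand setting and handling of reads with several positions are not given in the sources used here. Of 54532 genes, 54495 were matched by identifier to GENCODE M21 (GRCm38/mm10), which gave symbols, lengths and 1-based positions. Groups and replicate numbers came from the sample titles, and the labels give no batch and no sex per library. Nothing in the titles tells which samples shared a litter or a handling day, so p-values measure the spread between these samples. The smallest chi-square between any of 190 pairs of libraries was 32.9 per degree of freedom, so no library was held in duplicate.

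Counts were filtered with filterByExpr, scaled by TMM and tested with the quasi-likelihood F test of edgeR 4.0.16 in R 4.3.3, two-sided, with Benjamini-Hochberg adjustment over all 15984 genes and a threshold of 0.05. CPM were taken on TMM-scaled library sizes, with a prior count of 2 for log2 CPM, and ratios had a pseudocount of 0.5. A floor of 3 counts corresponds to 0.0964 to 0.246 CPM per library and, like all counting limits, covers counting error alone. Single values were compared by an exact permutation test over all 125970 assignments, and correlations by 40320 pairings in control and 100000 resamples in the libraries labelled knockout. On simulated counts the procedure was tested before use. DESeq2 1.42.0, used by the study, was an alternative, beside other scalings, filters, covariates, a block and omission of each library. The fit of 16 libraries without the block and the leukocyte relations were chosen after seeing the data.

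The 10 genes, the pathway and marker lists and the tests were chosen with earlier results of these data known. Named genes are all 10 members, the 4 called genes of each pathway list with the smallest p in each direction, every listed gene that failed the filter, the 2 genes most like each member, *Loxl2*, and defining markers of a cell type. A few genes that this rule names are not reported here.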

Additional observations from a re-analysis of the deposited data

How the results depend on the processing

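The positive direction of *Nfkb1*, *Nfkb2*, *Rel*, *Rela*, *Relb* and *Nfkbie* was kept in all 12 alternative settings and in all 20 fits that left out 1 library. With the leukocyte markers as covariate, however, *Nfkb1* (0.01, SE 0.11), *Rel* (0.02, SE 0.21) and *Rela* (0.05, SE 0.17) were not separated from no change. *Nfkb1* and *Rel* were called in none of these fits. The 10 members gave 5 calls, 4 to 5 when each library was left out, and 4 under DESeq2 size factors, upper-quartile factors, the DESeq2 Wald test and no filter, where *Rela* was lost each time (adjusted p 0.0559, 0.0561, 0.054 and 0.0754 by edgeR or DESeq2). With the muscle, leukocyte and osteoclast markers as covariate 1, 0 and 0 members and 1154, 0 and 0 of all genes were called, against 3673 genes in the fit without one. At an unadjusted p under 0.05 by edgeR these fits held 5, 0 and 0 members and 3965, 854 and 1299 of all genes. Leaving out each library gave 2551 to 4181 called genes. Reversed log2 fold changes were those of *Nfkbib* with muscle (0.01), leukocyte (0.07) and osteoclast markers (0.18), *Ikbkb* with leukocyte (-0.04) and osteoclast markers (-0.10), and *Nfkbia* (-0.06) and *Tnfaip3* (-0.24) with osteoclast markers. Library totals alone as scaling shifted the median of all genes to 0.12 and gave 2188 higher and 849 lower calls, against 1918 and 1755. The chondrocyte, neutrophil, T cell and muscle markers differed between groups by the adjusted exact test as the log2 of their summed CPM (1.01, 2.09, 1.04 and -0.55) and not as their mean log2 CPM. The cause of these changes was not tested.

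No pairing by replicate number was seen in the expression: same-numbered libraries correlated from -0.36 to 0.168 and 2 of 8 pairs exceeded 0.1. These values cannot exclude a shared litter or handling day, since libraries also differed in tissue composition. With the number as a block, on 16 libraries, 4 members and 1786 of all genes were called (3 and 4 of the adaptor and target lists), against 5 and 3280 on these libraries without the block, and *Nfkbia* was lost (0.43, adjusted p = 0.0898 by edgeR). Depth limits the low members: *Nfkbie* rested on 24 to 323 reads per library.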
